A study of Mus musculus with 8 samples.

Results

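Imprinted genes are transcribed mainly from one parental copy, and the 35 genes described here are named members of this class. They were found as all probe sets whose platform annotation names a single listed gene and no other. This gave 92 of the 45101 probe sets on the array, for 32 of the 35 genes, among 18193 genes that a probe set names alone. No probe set named Rtl1 or Dio3 in the annotation used here. H19, the maternally expressed noncoding RNA beside Igf2, shared its probe set with Mir675 and was therefore not analysed here. Of the 92 probe sets, 68 had a mean signal over the filter used for testing, and these covered 28 genes. Phlda2, Ascl2, Zim1 and Peg10 had probe sets under the filter only.

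Total RNA from mouse was hybridised to 8 short-oligonucleotide arrays, 4 labelled Exp and 4 labelled Ctrl, with the numbers 1 to 4 in each group. The tissue is given as trigeminal ganglion, which holds sensory neurons of the face, in the description, whereas the title names brain and adrenal medulla. The labels state no genotype, strain, treatment, age or sex for either group, and nothing says that each array came from a separate animal. The signal of Xist, the RNA of the inactive X chromosome, was 15.63, 10.44, 9.46 and 15.32 in Exp 1 to 4, against 10.77, 9.64, 15.14 and 10.36 in Ctrl 1 to 4. It was thus high in 2 Exp arrays and 1 Ctrl array, so neither group consists of repeats of one RNA sample. Judged by Xist alone, sex appeared mixed and not balanced, while the labels do not state it. The p-values measure the spread between these arrays, part of which may be technical, and 4 arrays per group limit the precision of each value.

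In an imprinted region, DNA methylation set in the egg or the sperm marks a control region, and that mark decides which copy is read in the offspring. Many such genes act in opposition on growth, with several paternally expressed genes promoting it and several maternally expressed genes restraining it. A number of them are also strongly transcribed in embryonic and neural tissue. The arrays measure RNA from both copies together, so they carry no information on which copy was read. In RNA from whole tissue, fewer cells of a type and less RNA per cell cannot be told apart.

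Levels are given as log2(signal + 16) after quantile normalisation, and differences are Exp minus Ctrl on that scale. Across all 27022 tested probe sets, 1 (0.0037%) passed a 5% false discovery rate in limma, that of 1300017J02Rik, which is no imprinted gene. The sensory neuron markers were present in both groups, with Pou4f1 at 16.37 in Exp and 16.29 in Ctrl and Stmn2 at 15.75 in Exp and 15.67 in Ctrl. Of 8 chromaffin cell markers on the array 5 passed the filter, among them Chgb at 14.28 in Exp and 14.38 in Ctrl, Th at 12.31 in Exp and 12.38 in Ctrl, and Pnmt at 9.99 in Exp and 10.16 in Ctrl. Dbh, Phox2a and Hand2 lay under it. The filter was also passed by 3 of 7 adrenal cortex markers, 2 of 5 astrocyte and oligodendrocyte markers (Aqp4 and Aldh1l1), 1 of 3 forebrain markers and 0 of 2 placental markers. The skeletal muscle list, in contrast, varied widely, with a mean level between 8.65 and 10.86 in Exp arrays, highest in Exp 3, and between 8.80 and 9.14 in Ctrl arrays. No marker had a signal of 0 in these files.

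Transcripts of 28 imprinted genes were measured over the filter in these samples, and none differed between Exp and Ctrl beyond the threshold. Of their 68 tested probe sets 0 were called, and every adjusted p was 0.9994 (limma, Benjamini-Hochberg over all probe sets). An unadjusted p under 0.05 was found for 5 of the 68 (7.35%), against 4.69% of all tested probe sets. Of the 5, 4 were higher in Exp, where 2.18% of all probe sets were, and 1 was lower, where 2.5% were. These belonged to Asb4, Cdkn1c and Dlk1, with 1 each, and to Meg3, with 2. The groups did not overlap in 2 of the 68 probe sets (2.94%), against 2.34% of all. Both were higher in Exp, where the background is 1.06%, and none was lower, where it is 1.28%. With so few probe sets, neither share stands clear of the background.

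By gene, taken through its brightest probe set, 20 of 28 members had a higher mean in Exp, where 45.2% of 12763 genes did. The median difference was 0.07 for the members and -0.01 for all genes. For 27 of the 28 the 95% confidence interval of the brightest probe set lay inside -1 to 1, and the exception was Nnat. That is less than a doubling or a halving. In dimmer tested probe sets of Dlk1, Ube3a, Airn and Rasgrf1 the interval reached past these limits. Standard errors ran from 0.08 to 0.38 with a median of 0.13.

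**Figure D1:**
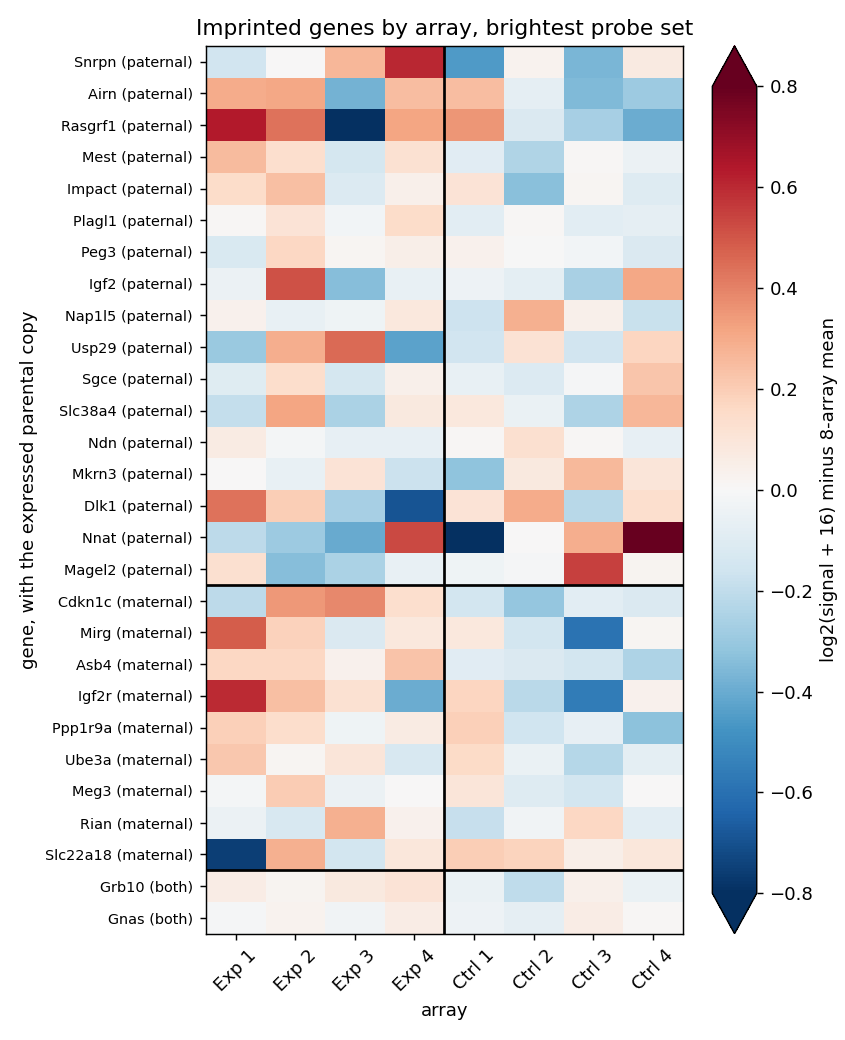
Deviation of each gene's log2(signal + 16) from its mean over 8 arrays, for the brightest tested probe set of 28 imprinted genes (rows, with the parental copy expressed) in the 4 Exp and 4 Ctrl arrays (columns). Colours saturate at the ends of the scale. Nnat shows strong colours in both groups and Rasgrf1 in Exp 3, whereas Ndn, Peg3 and Gnas are pale throughout.

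Genes listed as expressed from the mother's copy and genes listed as expressed from the father's copy were then described apart. The listing is by gene, and which copy was read in this tissue was not measured. Among the 9 maternally expressed genes with a tested probe set, 8 had a higher mean in Exp and the median difference was 0.18. Meg3, Rian and Mirg, which are among them, lie in one region, so the 9 are not independent. Of the 17 paternally expressed genes with one, 10 had a higher mean in Exp and the median was 0.01. In the brightest probe sets, unadjusted p-values under 0.05 came from 2 of the 9 maternally expressed genes and 0 of the 17 paternally expressed genes, where 3.73% of all genes had one. Among the dimmer probe sets, 1 of the paternally expressed Dlk1 and 2 of the maternally expressed Meg3 had one, so this contrast depends on the probe set taken. The contrast between both groups of genes was not tested, since the members were chosen by name with results known.

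By array, the mean deviation of the maternally expressed genes was 0.07, 0.16, 0.06 and 0.01 in Exp 1 to 4, against 0.05, -0.10, -0.18 and -0.08 in Ctrl 1 to 4. Ctrl 1 thus stood among the Exp arrays, and the groups overlapped. Without Ctrl 1 the maternal median was 0.28, and without Ctrl 4 it was 0.10. For the paternally expressed genes the means were 0.05, 0.12, -0.15 and 0.04 in Exp, against -0.08, -0.01, -0.05 and 0.06 in Ctrl, and Exp 3 was the lowest of all arrays.

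**Figure D2:**
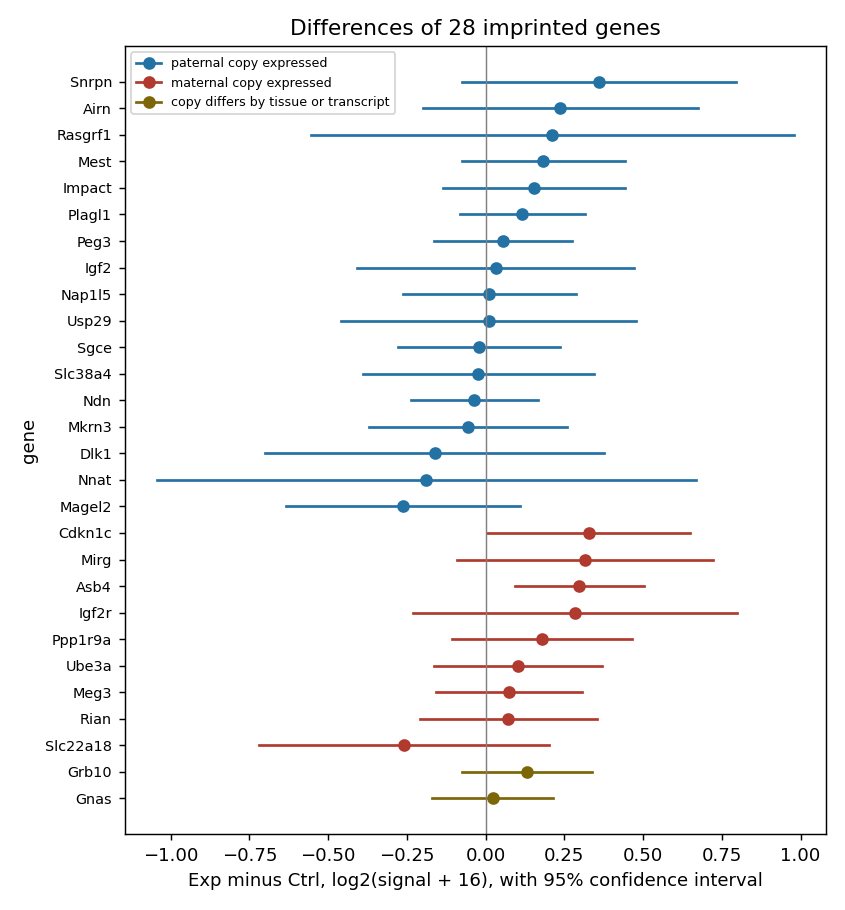
Exp minus Ctrl difference in log2(signal + 16) for 28 imprinted genes, with limma's 95% confidence interval (4 arrays per group), coloured by the parental copy expressed. Of the 9 maternally expressed genes, 8 lie right of 0 and Slc22a18 lies left of it, while 10 of the 17 paternally expressed genes lie right of it.

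The growth factor axis comes first among the named genes. Igf2, the fetal growth factor read from the father's copy, had signals of 13.07, 13.63, 12.78 and 13.06 in Exp, against 13.08, 13.04, 12.86 and 13.43 in Ctrl. The values of both groups cover the same range, with Exp 2 highest and Exp 3 lowest. The difference was 0.03 (SE 0.19, 95% confidence interval -0.41 to 0.47). Mesenchyme and fibroblast markers were also highest in Exp 2, at 0.55 above their 8-array mean. They lay between -0.27 and 0.55 in Exp and between -0.23 and 0.13 in Ctrl. Of these 9 marker genes 6 had a higher mean in Exp, where 45.2% of all genes did. Their part in the Igf2 signal was not tested.

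Igf2r, the maternally expressed receptor that carries IGF2 protein to lysosomes, had 12.05, 11.70, 11.58 and 11.06 in Exp, against 11.63, 11.24, 10.90 and 11.49 in Ctrl. The spread within each group exceeded the difference of 0.28 (SE 0.23). The other Igf2r probe set differed by 0.04 (SE 0.15). Airn, the paternally expressed noncoding RNA that silences Igf2r in cis, had 10.34 ± 0.33 in Exp and 10.10 ± 0.27 in Ctrl (SD, n = 4 each) in its brightest probe set. Of its 3 tested probe sets 2 were higher in Exp, with differences from -0.08 to 0.44.

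Grb10 encodes an adaptor that restrains insulin and IGF receptor signalling and is read from the father's copy in neurons and from the mother's copy in most other tissues. Its signals were 15.42, 15.38, 15.44 and 15.47 in Exp, against 15.31, 15.16, 15.40 and 15.31 in Ctrl, a difference of 0.13 (SE 0.09). The Exp values lie close together, and only Ctrl 3 reached into their range. The other probe sets of Grb10 differed by 0.29 (SE 0.18) and -0.19 (SE 0.14), so the probe sets of this gene did not share a direction. Of 16 tested genes of the IGF pathway other than these, 12 had a higher mean in Exp, where 45.2% of all genes did. Among the 16, 0 were called, 0 had an unadjusted p under 0.05, and the median was 0.05. Pappa, a protease of IGF binding proteins, differed by 0.23 (SE 0.17) and Igf1r, the receptor for both IGFs, by 0.08 (SE 0.11).

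Of the growth-restraining genes near Kcnq1, Cdkn1c was the one with a difference near the edge of its error. Cdkn1c encodes the cyclin-dependent kinase inhibitor p57, which takes cells out of the cycle. It had 13.41, 13.96, 14.00 and 13.75 in Exp, against 13.47, 13.31, 13.53 and 13.50 in Ctrl. In 3 of the 4 Exp arrays the signal lay above every Ctrl array, while Exp 1 lay within the Ctrl range. The difference was 0.33 (SE 0.14, 1.25-fold, limma, unadjusted p = 0.0470, adjusted p = 0.9994). With arrays centred on their medians it was 0.27 (unadjusted p = 0.127, limma), and over the fits without 1 array it ran from 0.25 (without Exp 3) to 0.45 (without Exp 1, unadjusted p = 0.00458, limma).

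Slc22a18, an organic cation transporter gene, was the only maternally expressed gene over the filter with a lower mean in Exp in its brightest probe set. It had 8.09, 9.13, 8.70 and 8.93 in Exp, against 9.04, 9.02, 8.89 and 8.93 in Ctrl. Exp 1 lay below all other arrays, and the difference of -0.26 (SE 0.20) was -0.05 without it. Phlda2, which restrains placental growth, and Ascl2, a transcription factor of trophoblast, had no probe set over the filter. The signal of Phlda2 lay between 5.12 and 9.10 in Exp and between 7.10 and 8.16 in Ctrl, and that of the brightest Ascl2 probe set between 5.63 and 6.83 in Exp and between 6.43 and 7.18 in Ctrl. Low signals of this kind carry no detection call here.

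The Dlk1-Dio3 region holds the protein gene Dlk1 on the father's copy and a series of noncoding RNAs on the mother's copy. Meg3 is a long noncoding RNA, Rian hosts small nucleolar RNAs, and Mirg hosts many microRNAs. The region had 11 tested probe sets for Meg3, 4 for Rian and 2 for Mirg, and all 17 had a higher mean in Exp under each of the 3 scalings tried. Probe sets of one gene read the same RNA, and these 3 genes lie in one region, so the 17 are not independent. None was called, and the background for a difference above 0 is 48.4% of all tested probe sets.

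Differences ran from 0.07 to 0.36 for Meg3, from 0.07 to 0.38 for Rian and from 0.16 to 0.31 for Mirg. The brightest Meg3 probe set had 16.10, 16.32, 16.07 and 16.12 in Exp, against 16.21, 16.01, 15.97 and 16.12 in Ctrl, a difference of 0.07 (SE 0.10). These values overlap. The third brightest probe set gave 14.75, 14.74, 14.77 and 14.54 in Exp, against 14.63, 14.43, 14.42 and 14.36 in Ctrl, with Exp 4 under Ctrl 1 and a difference of 0.24 (SE 0.10, limma, unadjusted p = 0.0442). The ninth brightest differed by 0.34 (SE 0.15, limma, unadjusted p = 0.0467). In the tenth brightest the groups did not overlap, with signals between 10.44 and 11.08 in Exp and between 10.28 and 10.40 in Ctrl.

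Averaged over the 17 probe sets, the deviation was 0.15, 0.12, -0.03 and 0.18 in Exp 1 to 4, against 0.12, -0.12, -0.15 and -0.28 in Ctrl 1 to 4. Ctrl 1 lay within the Exp range and above Exp 3, so the groups overlapped. Rian in its brightest probe set had 14.42, 14.34, 14.75 and 14.50 in Exp, against 14.28, 14.44, 14.63 and 14.38 in Ctrl, a difference of 0.07 (SE 0.12) that was -0.01 without Exp 3. Mirg had 11.04, 10.74, 10.44 and 10.64 in Exp, against 10.64, 10.41, 9.97 and 10.57 in Ctrl, a difference of 0.31 (SE 0.18). Exp 1 was highest and Ctrl 3 lowest, and the others overlapped.

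**Figure D3:**
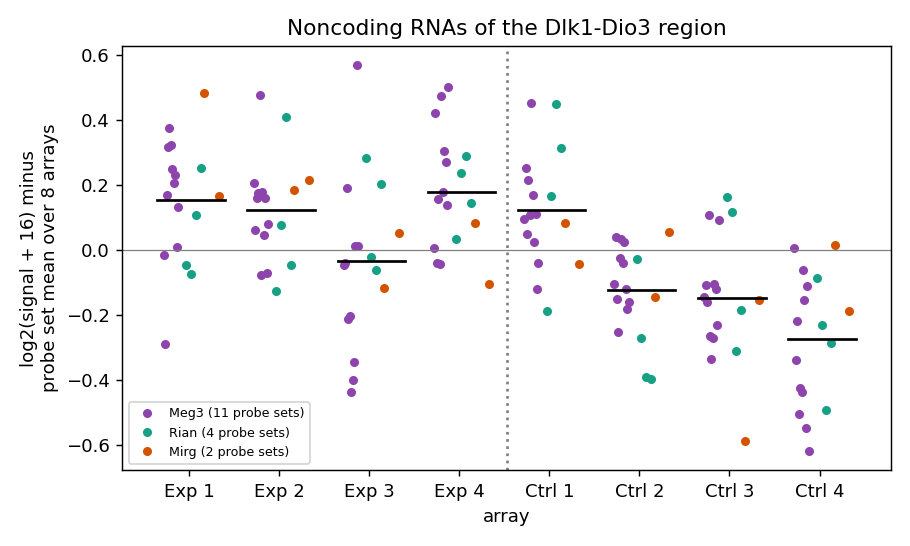
Deviation of log2(signal + 16) from each probe set's mean over 8 arrays, for the 11 Meg3, 4 Rian and 2 Mirg probe sets tested, by array, with a black bar at the mean of the 17. The bars of Exp 1, 2 and 4 and of Ctrl 1 lie above 0, and those of Exp 3 and Ctrl 2, 3 and 4 lie below it.

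Dlk1 encodes a transmembrane protein with EGF repeats that holds back differentiation in several lineages, and both of its tested probe sets had a lower mean in Exp. Its brightest probe set had 10.68, 10.44, 9.98 and 9.55 in Exp, against 10.35, 10.54, 10.02 and 10.38 in Ctrl, a difference of -0.16 (SE 0.24). The Exp values cover the whole Ctrl range and more on both sides. In the other probe set the signals were 8.64, 8.93, 8.50 and 8.23 in Exp, against 9.45, 9.31, 8.75 and 9.10 in Ctrl. There 3 Exp arrays lay below every Ctrl array and Exp 2 above Ctrl 3 alone, with a difference of -0.58 (SE 0.19, limma, unadjusted p = 0.0148, adjusted p = 0.9994). The group means there, 8.57 in Exp and 9.15 in Ctrl, lie close to the filter at 8.45.

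The start of Meg3 is shown because its promoter window holds the hexamer TGCCGC, which the imprint-keeping zinc finger protein ZFP57 binds when the site is methylated. The 250 bases before the start lie at chr12:109540746-109540995 on the plus strand of GRCm38.p6 (RefSeq), and capitals mark the hexamer, here on the opposite strand.
Meg3: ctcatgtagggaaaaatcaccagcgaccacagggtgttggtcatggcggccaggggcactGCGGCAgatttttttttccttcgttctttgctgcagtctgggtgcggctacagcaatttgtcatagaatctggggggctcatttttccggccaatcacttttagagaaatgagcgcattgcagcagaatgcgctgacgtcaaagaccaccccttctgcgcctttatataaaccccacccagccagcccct

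Peg3, a zinc finger gene active in embryo and brain, and Usp29, a ubiquitin protease gene, are read from the father's copy and start head to head. The 163 bases between their starts, at chr7:6730420-6730582 of GRCm38.p6 (RefSeq), are printed on the strand of Usp29, with capitals at the 5 CpG sites, where methylation can lie. They show that a single short stretch precedes both genes, and it holds 0 copies of TGCCGC.
Peg3-Usp29: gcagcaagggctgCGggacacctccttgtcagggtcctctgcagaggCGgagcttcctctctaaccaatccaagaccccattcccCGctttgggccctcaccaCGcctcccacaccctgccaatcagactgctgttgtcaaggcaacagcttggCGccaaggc

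The signals of both genes are given next, from a bright probe set for Peg3 and a dim one for Usp29. Peg3 had 15.45, 15.74, 15.59 and 15.62 in Exp, against 15.61, 15.57, 15.55 and 15.46 in Ctrl, a difference of 0.05 (SE 0.10). The other tested Peg3 probe set differed by 0.205 (SE 0.124). Usp29 had 8.95, 9.54, 9.70 and 8.82 in Exp, against 9.09, 9.36, 9.09 and 9.42 in Ctrl, a difference of 0.01 (SE 0.21). The Exp arrays split, with Exp 2 and Exp 3 high and Exp 1 and Exp 4 low, on either side of the Ctrl arrays. Across the 8 arrays Pearson's r between Peg3 and Usp29 was 0.25 and Spearman's rho 0.12 (exact permutation p = 0.561 and 0.793), and without the 2 arrays farthest from the Peg3 median r was -0.40. A shared variation of both genes was thus not detectable over these arrays. Zim1, the maternally expressed zinc finger gene beside them, had no probe set over the filter, with signals between 7.05 and 7.97 in Exp and between 4.97 and 7.44 in Ctrl.

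The Exp arrays ordered for Usp29 as they did for the skeletal muscle list. As deviations from its mean, that list had -0.05, 0.48, 1.55 and -0.66 in the 4 Exp arrays, against -0.52 to -0.18 in Ctrl. Of its 15 tested genes 14 had a higher mean in Exp, where 45.2% of all genes did. Over the 8 arrays r was 0.81 and rho 0.74 (exact permutation p = 0.00523 and 0.0458, adjusted p = 0.147 and 0.977 over 28 genes). Without the 2 arrays farthest from the muscle median r was 0.51 (exact permutation p = 0.306), so over the pooled arrays the relation did not hold without Exp 2 and Exp 3. Within Exp r was 0.93 and within Ctrl, which holds neither of these, 0.96, over 4 arrays each. On deviations from the group means r was 0.91 (exact permutation p = 1.49e-04, adjusted p = 0.00417). That permutation also exchanged deviations between Exp and Ctrl, although they were centred within each group. Its p can therefore be too small, and no conclusion is drawn from it.

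No other of the 28 genes had an adjusted p under 0.05 with the muscle list on either scale. For Cdkn1c r was 0.68 and rho 0.26 (exact permutation p = 0.0539 and 0.536), and r turned to -0.79 without the 2 arrays farthest from the muscle median. Igf2 had r = -0.11 and rho = -0.07 (exact permutation p = 0.80 and 0.88), and r = 0.30 without the 2 arrays. The part of muscle RNA in the members' signals was not tested.

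**Figure D4:**
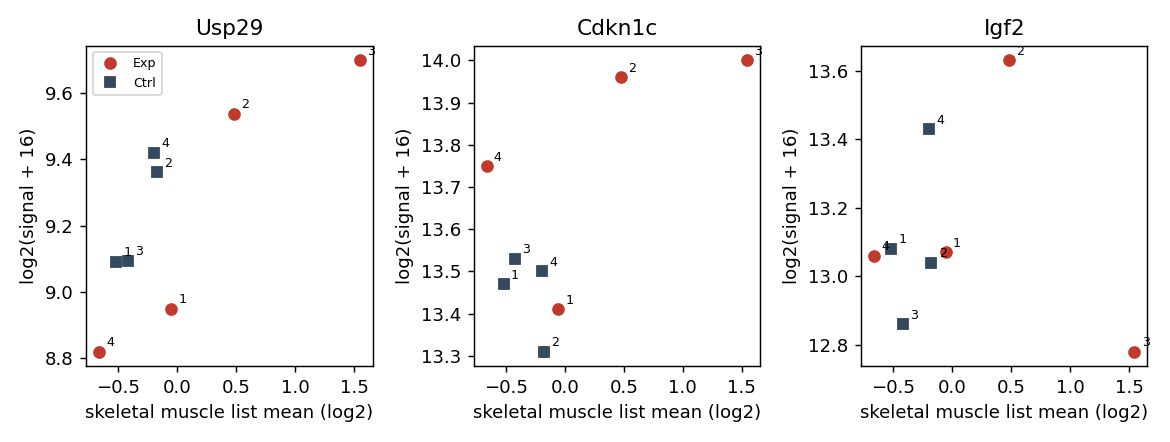
log2(signal + 16) of Usp29, Cdkn1c and Igf2 (vertical axes, which do not start at 0) against the mean deviation of 15 skeletal muscle genes (horizontal axis), 1 point per array, numbered by replicate, with circles for Exp and squares for Ctrl. Exp 3 lies far to the right at 1.55, with the highest Usp29 (9.70) and Cdkn1c (14.00) and the lowest Igf2 (12.78).

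The Prader-Willi and Angelman region, whose genes act largely in neurons, held 5 members. Ndn encodes necdin, a MAGE family protein of postmitotic neurons, and its brightest probe set had 16.57, 16.49, 16.44 and 16.44 in Exp, against 16.51, 16.63, 16.51 and 16.44 in Ctrl. The difference was -0.04 (SE 0.09), and the 5 tested probe sets of Ndn differed by -0.12 to 0.03. Magel2, another MAGE family gene, had 9.73, 9.26, 9.34 and 9.53 in Exp, against 9.56, 9.59, 10.14 and 9.62 in Ctrl, a difference of -0.26 (SE 0.16). Ctrl 3 was highest by far, and without it the groups still overlapped.

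Snrpn, which encodes the neuronal splicing protein SmN, was measured by the only probe set that names it alone, while 6 others also name Snurf and were not used. It had 8.57, 8.73, 8.99 and 9.33 in Exp, against 8.27, 8.75, 8.36 and 8.80 in Ctrl, a difference of 0.36 (SE 0.19, limma, unadjusted p = 0.0941). Exp 3 and Exp 4 lay above all Ctrl arrays, and the other Exp arrays lay among them. The ubiquitin ligase gene Mkrn3 differed by -0.06 (SE 0.14), with 10.86 ± 0.12 in Exp and 10.92 ± 0.25 in Ctrl (SD, n = 4 each).

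Ube3a, the ubiquitin ligase gene read from the mother's copy in mature neurons, had 15.20, 15.00, 15.08 and 14.86 in Exp, against 15.14, 14.93, 14.76 and 14.91 in Ctrl, a difference of 0.10 (SE 0.12). Its 6 tested probe sets differed by -0.19 to 0.23, with 4 higher and 2 lower in Exp. Across arrays Ndn and Snrpn had r = -0.44 and rho = -0.64 (exact permutation p = 0.285 and 0.0962), and r = -0.87 without the 2 arrays farthest from the Ndn median (exact permutation p = 0.0167, adjusted p = 0.142). Without quantile normalization r was 0.55, so its sign turns with the scaling.

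In the Peg10-Sgce region, Asb4 had the smallest unadjusted p of all members. Asb4 encodes an ankyrin repeat protein with a SOCS box, which ties it to ubiquitin ligase complexes, and it is expressed from the mother's copy. Its brightest probe set had 11.06, 11.06, 10.93 and 11.12 in Exp, against 10.80, 10.78, 10.75 and 10.65 in Ctrl. The lowest Exp array lay above the highest Ctrl array, with a difference of 0.30 (SE 0.09, 95% confidence interval 0.09 to 0.50, 1.23-fold, limma, unadjusted p = 0.00954, adjusted p = 0.9994). The value stayed between 0.27 and 0.33 over the fits without 1 array.

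The second Asb4 probe set did not show this. It had 10.18, 9.27, 9.79 and 8.87 in Exp, against 10.06, 9.80, 9.73 and 9.94 in Ctrl, a difference of -0.36 (SE 0.26). There the Exp arrays spread widely while the Ctrl arrays lay close together, and the difference between both probe sets was not tested. Sgce, which encodes epsilon-sarcoglycan and is the gene of a form of myoclonus dystonia, differed by -0.02 (SE 0.11) in its brightest probe set and by 0.38 (SE 0.20) in the other. Ppp1r9a, the gene of the actin-binding synaptic protein neurabin, had 14.40, 14.35, 14.17 and 14.27 in Exp, against 14.40, 14.05, 14.14 and 13.88 in Ctrl, a difference of 0.18 (SE 0.13), and all 3 of its tested probe sets had a higher mean in Exp. Peg10, a gene derived from a retrotransposon, lay under the filter, between 7.18 and 7.85 in Exp and between 6.63 and 7.50 in Ctrl.

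**Figure D5:**
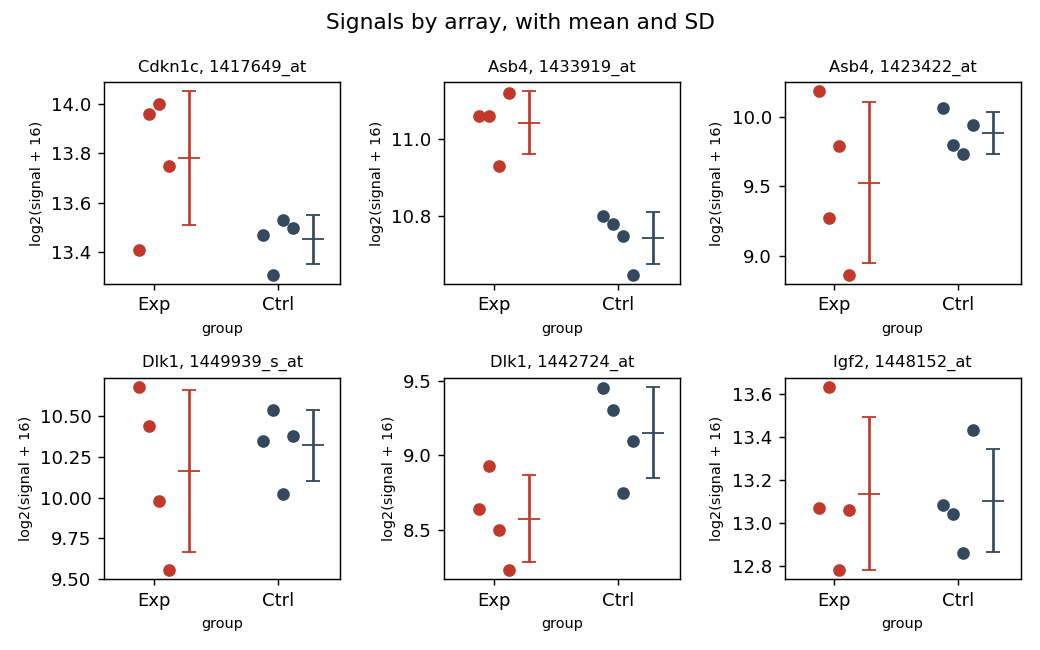
log2(signal + 16) of Cdkn1c, Igf2 and both tested probe sets of Asb4 and Dlk1 in each Exp and Ctrl array (points), with the mean and SD (bars, n = 4 each); each panel has its own vertical range, which does not start at 0. The groups separate only for the brightest probe set of Asb4, 1 of the 6 shown.

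The remaining paternally expressed genes stand alone or in small domains. Mest, an alpha/beta hydrolase fold gene of embryonic mesoderm, had 14.23, 14.11, 13.84 and 14.10 in Exp, against 13.89, 13.74, 13.99 and 13.93 in Ctrl. Of the Exp arrays 3 lay above every Ctrl array and Exp 3 lay among them, with a difference of 0.18 (SE 0.11). Nap1l5, related to nucleosome assembly proteins and expressed in neurons, averaged 13.17 ± 0.06 in Exp and 13.16 ± 0.21 in Ctrl (SD, n = 4 each). Its difference was 0.01 (SE 0.12).

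Mest and Nap1l5 are shown because their promoter windows are those with more than 1 copy of TGCCGC among the members' windows searched. For each, the 250 bases before a start are printed from RefSeq (GRCm38.p6) with the hexamer of either strand in capitals. The Mest stretch lies at chr6:30737800-30738049 on the plus strand and that of Nap1l5 at chr6:58907127-58907376 on the minus strand, where the second copy lies past the start and is not printed.
Mest: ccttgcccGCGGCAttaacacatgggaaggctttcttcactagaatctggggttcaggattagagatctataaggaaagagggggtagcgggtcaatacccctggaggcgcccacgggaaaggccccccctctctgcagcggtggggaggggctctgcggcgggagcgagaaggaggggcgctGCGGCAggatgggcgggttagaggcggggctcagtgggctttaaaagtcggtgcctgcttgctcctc
Nap1l5: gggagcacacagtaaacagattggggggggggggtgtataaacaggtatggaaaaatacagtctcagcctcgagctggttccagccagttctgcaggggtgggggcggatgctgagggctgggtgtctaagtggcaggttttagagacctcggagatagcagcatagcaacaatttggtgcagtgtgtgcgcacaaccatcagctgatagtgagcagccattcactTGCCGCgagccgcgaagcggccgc

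Searched on both strands, TGCCGC was in the RefSeq promoter window (250 bases before to 50 after a start) for 9 of 29 imprinted genes searched (31%), against 13.1% of 27025 genes. Members' windows on chromosome 18, where Impact lies, were left out of the search, while those of all genes were kept. Those 9 were Igf2, Meg3, Zim1, Snrpn, Mest, Nap1l5, Plagl1, Nnat and Grb10. By window the shares were 21.7% of 46 and 11.6% of 32851, and the members' windows also held more CpG sites, with a median of 13 against 7. A copy of the hexamer is a match of letters and says nothing of binding in these samples.

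Plagl1, the zinc finger gene Zac1, which has been linked in mouse to the activity of other imprinted genes, had 15.71, 15.81, 15.68 and 15.85 in Exp, against 15.62, 15.71, 15.62 and 15.63 in Ctrl. The difference was 0.12 (SE 0.09), with only Ctrl 2 reaching the lowest Exp arrays. A dimmer Plagl1 probe set differed by 0.43 (SE 0.21, limma, unadjusted p = 0.0669). Impact, which encodes an inhibitor of the translation kinase GCN2, differed by 0.15 (SE 0.13) and 0.17 (SE 0.16) in both tested probe sets.

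Nnat encodes neuronatin, a small membrane protein of neurons and endocrine cells, and it had the largest standard error among the members' brightest probe sets. Its signals were 10.75, 10.67, 10.56 and 11.49 in Exp, against 10.04, 10.96, 11.25 and 11.96 in Ctrl. Array 4 was highest in each group, and the Ctrl arrays alone spanned the whole range. The difference of -0.19 (SE 0.38) became 0.11 without Ctrl 4.

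Rasgrf1, a Ras exchange factor gene of neurons, had 11.69, 11.49, 10.09 and 11.37 in Exp, against 11.41, 10.94, 10.79 and 10.66 in Ctrl. Exp 3 lay far below the rest, and the difference of 0.21 (SE 0.34) was 0.57 without it. Slc38a4, an amino acid transporter gene, differed by -0.02 (SE 0.16) and -0.03 (SE 0.27) in its 2 tested probe sets. Gnas encodes the stimulatory G protein subunit and produces transcripts of either parental origin. Its brightest probe set had 15.72, 15.76, 15.70 and 15.79 in Exp, against 15.69, 15.66, 15.79 and 15.74 in Ctrl, a difference of 0.02 (SE 0.08). The other tested probe sets of Gnas differed by 0.24 (SE 0.12) and -0.05 (SE 0.14).

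Neighbouring members were set against each other over the 8 arrays, and no pair passed the test. Of 20 pairs of neighbours, 17 had a probe set for both genes, although in 6 of these 1 gene lay under the filter. Of the 17, 8 had a positive r, the median r was -0.08, and 0 had an adjusted p under 0.05 (0 also unadjusted, exact permutation). The lowest r was that of Meg3 and Rian in their brightest probe sets, at -0.63 (rho -0.78, exact permutation p = 0.0934 and 0.0295, adjusted p = 0.687 and 0.326). It was -0.53 without the 2 arrays farthest from the Meg3 median. Averaged over 11 Meg3 probe sets, deviations were 0.15, 0.13, -0.08 and 0.21 in Exp, against 0.12, -0.08, -0.14 and -0.31 in Ctrl. Over 4 Rian probe sets they were 0.06, 0.08, 0.10 and 0.18 in Exp, against 0.18, -0.27, -0.05 and -0.28 in Ctrl. Both averages were lowest in Ctrl 4, so the negative r belongs to the brightest probe sets, and the correlation of the averages was not tested. Meg3 and Mirg had r = 0.59 and rho = 0.72 (exact permutation p = 0.121 and 0.0519), with 0.33 without the 2 arrays. Dlk1 and Meg3 had r = 0.19 and rho = 0.05 (exact permutation p = 0.644 and 0.916), with 0.27 without the 2 arrays and -0.13 without quantile normalization.

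Other genes on a list of imprinted genes, apart from the members, were read in the same way. Whether each of them is imprinted in this tissue was not tested. Th and Dcn stood on this list and also among the chromaffin and mesenchyme markers. Of 36 tested, Xist included, 21 had a higher and 15 a lower mean in Exp, with a median of 0.03 and 0 called. Of all genes, 45.2% had a higher mean. The largest difference was that of Xist, at 1.24 (SE 1.67), with the array values given above. Osbpl5, an oxysterol-binding protein gene near Kcnq1, had 9.73, 9.74, 9.88 and 9.34 in Exp, against values between 9.93 and 10.46 in Ctrl. The difference was -0.48 (SE 0.16, limma, unadjusted p = 0.0141, adjusted p = 0.9994). Its groups did not overlap, as in 1.28% of all tested probe sets with Exp lower. Of the 36 genes only Osbpl5 had an unadjusted p under 0.05, where 3.73% of all genes had one. Kcnq1ot1, the noncoding RNA that silences the Kcnq1 region in cis, had 12.08, 12.06, 11.65 and 11.97 in Exp, against 11.89, 11.01, 11.77 and 11.27 in Ctrl, a difference of 0.46 (SE 0.21). Among the tested members near Kcnq1, Cdkn1c had a higher and Slc22a18 a lower mean in Exp, as given above. Their relation to Kcnq1ot1 was not tested. H13, a signal peptide peptidase gene, differed by 0.31 (SE 0.15), and Zdbf2 by -0.22 (SE 0.11).

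Genes that keep imprints or methylate DNA were close between groups. Of 21 tested, 13 had a higher and 8 a lower mean in Exp, where 45.2% of all genes had a higher one. Among the 21, 0 were called, 0 had an unadjusted p under 0.05, and the median was 0.01. Dnmt3a, a DNA methyltransferase that sets imprints in germ cells, differed by 0.16 (SE 0.14), Ctcf, the insulator protein of the Igf2-H19 region, by 0.09 (SE 0.09), Tet2, which oxidises methylcytosine, by 0.22 (SE 0.21), and Ezh2, the Polycomb methyltransferase, by -0.10 (SE 0.11). Of 6 tested Schwann cell markers, all 6 had a lower mean in Exp and 0 were called. An unadjusted p under 0.05 was found for 2 of them, where 3.73% of all genes had one. Egr2 differed most, by -2.66 (SE 0.97), whereas the others differed by -0.34 (Mbp) to -0.02 (Erbb3). The groups overlapped, with a list mean deviation between -0.64 and 0.05 in Exp and between -0.26 and 0.63 in Ctrl. These means are weighted heavily by Egr2. Their part in the members' differences was not tested.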

How the data were processed

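Signals of 8 arrays, 4 Exp and 4 Ctrl, were taken from the deposited table of intensity values, which are on a linear scale. The sources used here do not state how the authors derived the intensity values. Over all 45101 probe sets, controls included, each array's mean, trimmed by 2% at either end, was 2500 to the nearest whole number, and medians lay between 478 and 553. After leaving out 64 control probe sets, log2(signal + 16) was quantile normalised, and probe sets under the 40th percentile of mean signal (8.45, a signal of about 333) were left out of tests. Exp was compared with Ctrl over all 27022 probe sets with limma 3.58.1 in R 4.3.3 (lmFit and eBayes, two-sided, Benjamini-Hochberg adjustment). The pipeline was tested on simulated data. A fold change is that of signal + 16.

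Of 45037 probe sets, 34945 carried 1 gene name, 932 several and 9160 none, by the platform annotation updated through the RefSeq table of GRCm38.p6 (34741 matched). A gene was taken through its brightest probe set, with its other tested probe sets given beside it. All members may be named by the rule used, with values on every array for those with small p-values or wide spread, and up to 4 genes of each other list. The members and lists were chosen with earlier results of these data known. Correlations over the 8 arrays used all 40320 orders for exact two-sided permutation tests in Python 3.11.15, adjusted within the 17 gene pairs or the 28 genes. Same-numbered arrays had correlations of residuals from -0.12 to 0.05, so the numbers were not taken as pairs. Alternatives were pseudocounts of 1 and 64, no filter, a 60th percentile filter, other scalings, the replicate block, trend and robust options, array weights, Eif2s3y as a covariate for sex, averaging the tested probe sets by gene, and fits without 1 array. Figures were drawn with matplotlib 3.10.9.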

Additional observations from a re-analysis of the deposited data

Results flagged for a closer look

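Each tested probe set of the members was examined in each group of 4 arrays for a value that lay apart from the other 3 by more than Dixon's critical share of the range. This was so in 9 of 136 groups, where chance gives about 6.8. Exp 3 was such an array for 3 probe sets, the seventh brightest of Meg3 at 11.33 (the others 11.91 to 11.98), the fourth brightest of Ndn at 15.75 (15.86 to 15.88) and the brightest of Airn at 9.85 (10.47 to 10.53). Exp 4 lay apart for the third brightest probe set of Meg3 at 14.54 (14.74 to 14.77) and for the third brightest of Ube3a at 10.86 (10.10 to 10.21), and Exp 1 for the fourth brightest of Ube3a at 8.30 (10.31 to 10.69). In the Ctrl group, Ctrl 3 lay apart for Magel2 at 10.14 (9.56 to 9.62) and for the second Rasgrf1 probe set at 5.91 (8.82 to 9.17), and Ctrl 2 for the second Peg3 probe set at 11.00 (10.68 to 10.73). The low value of Ctrl 3 enters the difference of that Rasgrf1 probe set, 0.67 (SE 0.65).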

How the results depend on the processing

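No member probe set was called under any of the 18 alternatives of the fit. The count of members' probe sets with an unadjusted p under 0.05, 5, was 2 with centring on the median and ran from 2 (without Ctrl 2) to 8 (without Ctrl 1 or Exp 3) over the fits without 1 array, with 3 without Ctrl 4 or Exp 2. The single call among all probe sets became 0 with the Eif2s3y covariate, at the 60th percentile filter, without a filter and with the replicate block, and ran from 0 to 1 over the fits without 1 array. With the replicate block the members' count was 6 and 0 were called. The maternal median, 0.18, ran from 0.10 to 0.28 without 1 array, and the paternal median, 0.01, from -0.04 to 0.07. Of the muscle relations, 1 (Usp29) had an adjusted p under 0.05 on deviations from the group means, against 0, by a permutation that exchanged arrays between groups. Differences near 0 turned sign. With centring on the median Igf2 was -0.036 and Nap1l5 -0.057, without quantile normalization Ndn was 0.037, Nap1l5 -0.0079 and Slc38a4 0.013, with array weights Nap1l5 was -0.0061 and Slc38a4 0.043, and with the Eif2s3y covariate Nap1l5 was -4.80e-04 and Slc38a4 0.0036. Without 1 array, Igf2 ran from -0.14 to 0.15, Dlk1 from -0.33 to 0.041, Rian from -0.011 to 0.14, Usp29 from -0.14 to 0.15, Mkrn3 from -0.17 to 0.020, Sgce from -0.074 to 0.051, Nap1l5 from -0.045 to 0.11, Nnat from -0.53 to 0.11 and Slc38a4 from -0.13 to 0.061. The causes were not tested. The number of arrays limits every value.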
